A study of Mus musculus with 15 samples.

Results

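Histones are the proteins around which DNA is wound, and the mouse kidney arrays described here measured 38 of their genes among 19938 genes with a probe set of their own. Members were chosen by symbol, from H1f, H2ac, H2bc, H2az, H2ax, H2aj, H3c, H3f, H4c and Macroh2a genes, and had to own a probe set that the platform annotation gives to that symbol alone. Among them, 22 are replication-dependent core histone genes (4 H2ac, 9 H2bc, 3 H3c and 6 H4c), 8 are linker histone genes and 8 are core variants. Each gene was represented by its brightest probe set, and H2az1 was the 1 member that had a choice of 2. A further 32 probe sets carry several symbols, at least 1 of them a histone gene, and were kept apart, because histone paralogs are nearly identical in sequence and a probe may take up the transcripts of several genes. For the same reason, the values of single H2ac, H2bc, H3c and H4c genes are uncertain as to which paralog they report.

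Expression was measured on 15 arrays in 4 groups, to profile the progenitors of the nephron and the renin-producing cells of the adult kidney. In the first group are 4 metanephric mesenchyme (MM) cells, progenitors of the nephrons, each taken singly at 11.5 days of development from Tg(Crym-EGFP)GF82Gsat mice of unknown sex. The second holds 5 single juxtaglomerular (JG) cells, the renin-producing cells beside the glomerulus, from adult male mice with the Ren1c-YFP reporter, although the dissection text of these cells speaks of a Ren1d GFP line. Both kinds of cell were freed from tissue, picked one at a time with drawn-out glass needles under a fluorescent microscope and amplified by SCAMP, a single cell protocol, in 32 rounds. The other 2 groups hold 3 libraries each of adult renal cortex from Ren1c-YFP males, a lysate of many cell types. Diluted cortex went through the same 32 rounds of SCAMP as the cells, and standard-labelled cortex through 1 round of a NuGEN kit. All mice carried a fluorescent transgene, and the strain is unspecified. Cells are called by the numbers of their labels (MM cells 14, 15, 16 and 19, JG cells 4 to 8) and libraries by the letters A to C, and values are listed in that order. No label ties a cell or a library to an animal, so a group of cells counts as 1 sample and was not tested, and p-values between cortex libraries measure only a spread that may be technical. MM and JG cells differ in tissue, age, transgene and label of sex at once, and these cannot be told apart.

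Core histones H2A, H2B, H3 and H4 form the nucleosome, and the linker histone H1 binds the DNA that enters and leaves it. The replication-dependent genes lie in clusters, are read mainly while DNA is copied in S phase, and most of their mRNAs end in a stem-loop in place of a poly(A) tail. Variant histones such as H2A.Z, H2A.X and macroH2A are made in and out of S phase, mostly from polyadenylated mRNAs, and they mark promoters, DNA breaks and silent chromatin. How the labelling protocols primed the mRNAs is not given in the sources used here. In RefSeq, 18 of the 22 replication-dependent members lie on chromosome 13 and 4 on chromosome 3, 5 of the 8 linker genes also lie on chromosome 13, and the 8 variants are spread over 8 chromosomes.

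Promoters are shown for 4 H4 genes, which encode the same protein yet differed from cell to cell, and for the 2 H2A.Z genes, which separated MM cells from JG cells. Each window runs from 250 bases before to 50 bases after the start of the gene on its own strand (RefSeq, GRCm38.p6). Capitals mark matches, on either strand, to TATAAA, the TATA box, to CCAAT, the NF-Y box, and to GGTCCG, which was added after these windows had been read.
H4c4, chr13:23581318-23581617, plus strand: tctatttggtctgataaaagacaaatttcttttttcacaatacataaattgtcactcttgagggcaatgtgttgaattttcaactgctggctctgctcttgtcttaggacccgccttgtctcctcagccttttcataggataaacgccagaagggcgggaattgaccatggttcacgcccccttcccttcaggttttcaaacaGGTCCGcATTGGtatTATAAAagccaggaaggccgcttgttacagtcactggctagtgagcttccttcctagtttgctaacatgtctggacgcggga
H4c6, chr13:23551619-23551918, minus strand: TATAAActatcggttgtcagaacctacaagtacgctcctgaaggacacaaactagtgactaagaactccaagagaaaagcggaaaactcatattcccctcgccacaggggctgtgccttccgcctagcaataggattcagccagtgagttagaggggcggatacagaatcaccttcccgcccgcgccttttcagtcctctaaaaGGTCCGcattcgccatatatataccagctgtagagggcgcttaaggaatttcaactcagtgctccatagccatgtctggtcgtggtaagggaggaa
H4c8, chr13:23530794-23531093, plus strand: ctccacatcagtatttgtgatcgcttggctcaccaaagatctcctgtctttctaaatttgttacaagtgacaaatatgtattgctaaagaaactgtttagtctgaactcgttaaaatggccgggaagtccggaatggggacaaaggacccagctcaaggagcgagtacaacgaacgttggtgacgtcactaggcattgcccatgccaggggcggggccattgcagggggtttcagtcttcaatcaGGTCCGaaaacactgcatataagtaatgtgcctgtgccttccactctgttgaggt
H4c9, chr13:22041313-22041612, minus strand: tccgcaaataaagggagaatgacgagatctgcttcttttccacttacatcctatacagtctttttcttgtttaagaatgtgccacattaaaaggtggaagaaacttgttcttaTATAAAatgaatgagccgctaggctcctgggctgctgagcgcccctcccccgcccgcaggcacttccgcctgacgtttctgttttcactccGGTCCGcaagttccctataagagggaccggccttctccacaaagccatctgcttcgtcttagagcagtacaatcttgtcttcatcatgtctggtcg
H2az1, chr3:137864237-137864536, plus strand: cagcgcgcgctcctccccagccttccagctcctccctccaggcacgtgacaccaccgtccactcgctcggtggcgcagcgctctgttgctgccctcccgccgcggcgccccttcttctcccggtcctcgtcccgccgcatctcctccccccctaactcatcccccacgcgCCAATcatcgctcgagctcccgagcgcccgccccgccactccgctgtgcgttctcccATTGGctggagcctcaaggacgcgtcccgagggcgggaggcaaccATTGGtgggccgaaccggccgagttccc
H2az2, chr11:6444394-6444693, minus strand: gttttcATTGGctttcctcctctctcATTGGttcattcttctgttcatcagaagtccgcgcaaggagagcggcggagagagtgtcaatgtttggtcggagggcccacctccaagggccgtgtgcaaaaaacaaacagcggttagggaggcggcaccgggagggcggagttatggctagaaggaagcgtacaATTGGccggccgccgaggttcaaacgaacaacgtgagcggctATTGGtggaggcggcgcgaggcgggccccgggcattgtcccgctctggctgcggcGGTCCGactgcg
In H4c4, GGTCCG begins 47 bases, a match to CCAAT on the other strand 40 bases and TATAAA 32 bases before the start. GGTCCG lies 46 bases before the start in H4c6 and H4c9, and 5 bases before it in H4c8. The TATAAA match of H4c6 lies 250 and that of H4c9 137 bases before the start, far from where a TATA box acts, and H4c8 has no match to TATAAA or CCAAT in its window. Neither H2A.Z window holds TATAAA, while CCAAT matches 3 times in H2az1 and 4 times in H2az2.

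A promoter was at hand for 32 of the 38 members. TATAAA was found in 12 of 18 replication-dependent promoters (66.7%), 3 of 8 linker promoters and 0 of 6 variant promoters, against 13.6% of all 32851 promoters of the same length. CCAAT was found in 15 of 18 (83.3%), 6 of 8 and 5 of 6, against 37.4% of all. Within the replication-dependent genes, only 2 of 5 H4c promoters held it. ATTTGCAT, the octamer bound by Oct1, was found in 5 of 7 H2bc promoters, 3 of 4 H2ac promoters and in no linker, variant, H3c or H4c promoter, against 1.74% of all. GGTCCG was chosen after the windows shown above had been read, 4 of them H4c promoters, so its count among H4c promoters was not independent. It matched 5 of 5 H4c, 1 of 7 H2bc, 1 of 8 linker and 3 of 6 variant promoters, against 8.25% of all. The E2F site TTTGGCGC was found in 0 members and in 0.514% of all promoters. Both strands were searched, none of these motifs contains another, and a match is a description of the letters only.

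Signals are the deposited log2 values. The background level of an array was set at the 99th percentile of its 1205 olfactory and vomeronasal receptor probe sets, and it was lowest at 7.13 and highest at 7.56 in MM cells, against 7.55 and 7.93 in JG cells, 6.18 and 6.30 in diluted, and 6.30 and 6.52 in standard-labelled cortex (log2). Per array, between 10.9% and 21.1% of all genes lay above it in MM cells, between 6.78% and 14.2% in JG cells, between 48.3% and 50.5% in diluted cortex and between 43.7% and 48.2% in the standard-labelled libraries. JG cells 4 and 5 stand apart, since 60 ribosomal protein genes had medians of 8.47 and 8.49 there, against 12.29 to 12.35 in the other 3 JG cells (log2). Markers fitted the labels in part. Of 12 metanephric mesenchyme genes, 3 to 6 were above background in each MM cell, 1 to 6 in each JG cell, 7 in each diluted and 5 to 8 in each standard-labelled cortex library, and Six2, a defining gene, was above it in MM cells 14 and 16 and below it in MM cells 15 and 19. Markers of other cell types were also found in MM cells, among them 3 genes named after their values were seen. Of 4 genes of stroma progenitors, MM cells 14, 15, 16 and 19 had 2, 1, 0 and 1 above background and JG cells 0, with Foxd1 at 9.03 in MM cell 14 and 11.33 in MM cell 19, and Meis1 at 11.0 in MM cell 15 (log2). Of 4 endothelial genes, 1 was above it in MM cell 14 (Emcn, 11.77) and 0 in the other cells, and of 7 ureteric bud genes 2 or 3 in each MM cell and 1 to 4 in each JG cell. Their part in the results was not tested. Of 6 juxtaglomerular genes, at most 1 was above background in an MM cell, 1 to 4 in each JG cell, and 4 to 6 in each cortex library (Ren1 was not analysed here). Of 10 proximal tubule genes, 10 were above it in every cortex library. MM cell 14 had 1 above it, and JG cells 5 and 8 had 2 each. In JG cell 5, Miox was at 12.63, against 11.98 to 12.40 in cortex (log2), and it too was named after its values were seen. The 2 genes of JG cell 8 lay at 7.56 and 7.71, near its background of 7.55 (log2). The part of these signals in the results was not tested.

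**Figure D1:**
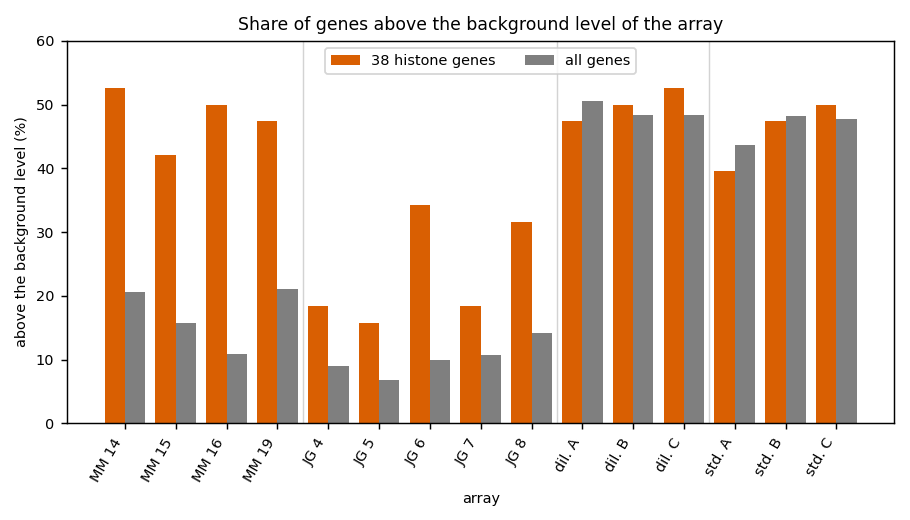
Bars give, for each array, the share (%) of the 38 histone genes (orange) and of all 19938 genes (grey) above the background level of that array. Histone genes reached at least 42.1% in each of the 4 MM cells and at most 34.2% in any of the 5 JG cells, above the bar of all genes in each cell, and near it in cortex.

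In single cells, a larger share of histone genes than of all genes lay above background, and MM cells held more of them than JG cells did. MM cells 14, 15, 16 and 19 had 20, 16, 19 and 18 of the 38 members above background, and JG cells 4 to 8 had 7, 6, 13, 7 and 12. Diluted cortex A to C had 18, 19 and 20, and standard-labelled cortex 15, 18 and 19. The ranges of the MM and JG cells did not overlap. With the 95th percentile as background level, MM cells had 25, 22, 22 and 23 members above it and JG cells 15, 15, 19, 19 and 20. These ranges lay closer together, without overlap, and the share of all genes above that level is not given here. As shares of 38, the counts at the main background level were between 42.1% and 52.6% in MM cells and between 15.8% and 34.2% in JG cells. Both were well over the shares of all genes. In cortex, the share of histone genes was between 47.4% and 52.6% after dilution and between 39.5% and 50% after standard labelling, near that of all genes.

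By class, core variants made most of the gap between the 2 kinds of cell. Above background were 7, 6, 6 and 7 of the 8 variants in MM cells, and 1, 1, 2, 2 and 1 in JG cells. Of the 22 replication-dependent genes there were 10, 8, 11 and 8 in MM cells and 5, 4, 9, 3 and 6 in JG cells, so that JG cell 6 reached the MM range. Of the 8 linker genes there were 3, 2, 2 and 3 in MM cells and 1, 1, 2, 2 and 5 in JG cells. MM cell 16, which had the smallest share of all genes above background in its group (10.9%), had 6 variants above it. JG cell 8, which had the largest share in its group (14.2%), had 1. Shares reached 21.1% in MM cell 19 and fell to 6.78% in JG cell 5, so this picked pair is a description only. How far the number of genes measured in a cell moves these counts was not tested.

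Counted over cells, 13 members (34.2%) were above background in all 4 MM cells, against 6.57% of all genes, and 4 (10.5%) in all 5 JG cells, against 3.39%. Those 4 were H2ac1, H2bc9, H4c14 and H1f10, all also above it in all MM cells. At least 1 cell held 26 members (68.4%), against 34.8% of all genes. H2ax and H2az2 were above background in all MM cells and in no JG cell (5.26% of members, against 0.326% of all genes). In all 6 cortex libraries, 15 members (39.5%) were above background, against 36.8% of all genes. On no array above it were 10 members, namely 6 replication-dependent genes (H2ac8, H2bc1, H2bc18, H2bc3, H2bc8 and H3c7), the linkers H1f3, H1f6 and H1f8, and the H3f3a probe set that is free of other symbols.

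**Figure D2:**
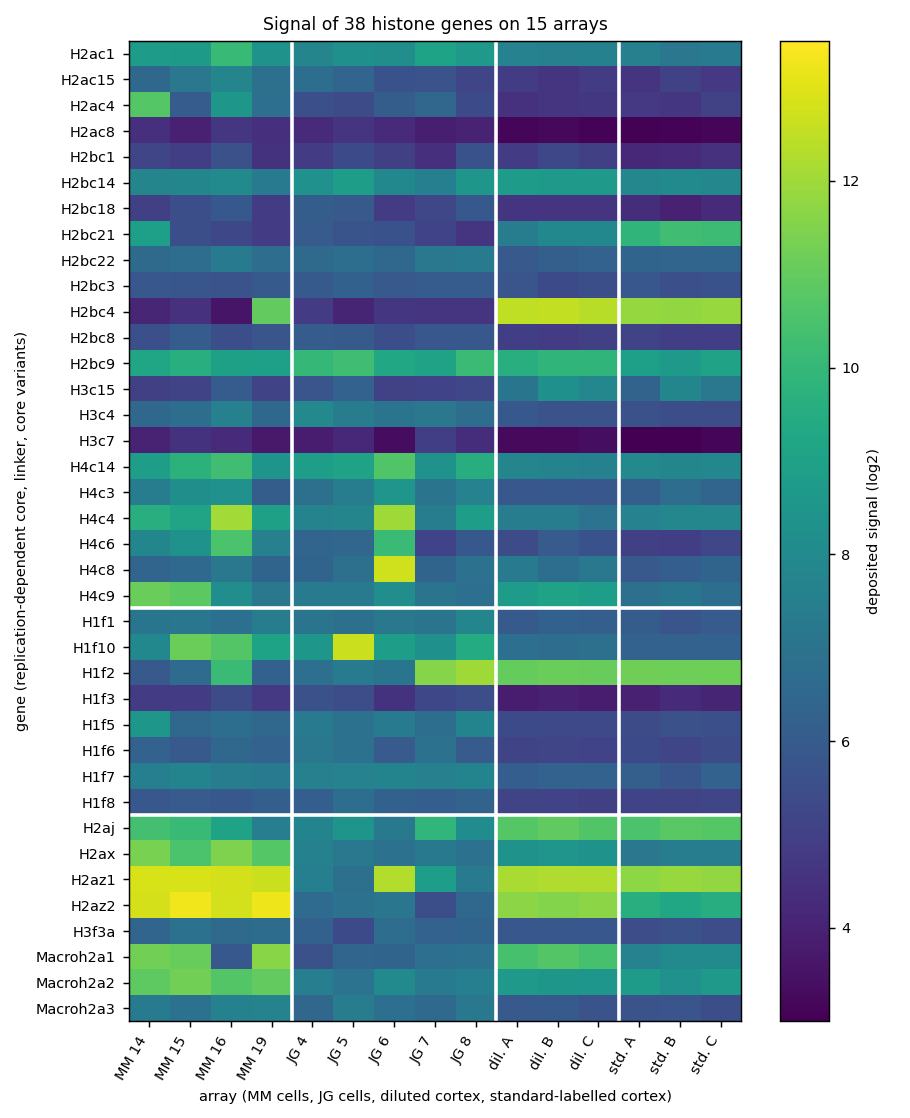
Colour gives the deposited log2 signal of each of the 38 genes (rows, with white lines between replication-dependent core, linker and core variant genes) on each of the 15 arrays (columns, with white lines between MM cells, JG cells, diluted and standard-labelled cortex). H2az2 had at least 12.80 in each MM cell and at most 7.14 in any JG cell, and H4c8 was at 12.73 in JG cell 6 against 5.93 to 7.29 on the other arrays.

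A member was counted as higher or lower between cells where its difference of group means lay at least 1 log2 unit beyond the median shift of the receptor genes and the 2 groups did not overlap. That shift was -0.21, MM minus JG (log2). Counted as higher in MM cells were 4 of 38 members (10.5%), against 1.06% of all genes, and as lower 0 of 38, against 0.186%. All 4 are core variants, H2ax, H2az1, H2az2 and Macroh2a2. Over the 8 variants the median difference was 3.50, while it was 0.02 over the replication-dependent and -0.22 over the linker genes, beside -0.19 over all genes (MM minus JG, log2). Without JG cells 4 and 5, all 4 still met the rule and H2ac15 joined them.

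H2az2 encodes H2A.Z.2, one of the pair of H2A.Z proteins found at promoters. Signals were (log2) 12.83, 13.28, 12.80 and 13.24 in MM cells and 6.67, 6.90, 7.14, 5.51 and 6.55 in JG cells. In cortex the log2 signals were 11.67, 11.57 and 11.66 in the diluted and 9.58, 9.24 and 9.55 in the standard-labelled libraries. Every MM cell was above every other array, and every JG cell was below the background of its array. The difference of means was 6.48, MM minus JG (log2), and with JG cells set at their background level H2az2 was at least 39.7-fold higher in MM cells.

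H2az1 encodes H2A.Z.1, the other of the pair. Its log2 signals were 12.88, 12.86, 12.84 and 12.67 in MM cells, and 7.52, 6.89, 12.31, 8.85 and 7.36 in JG cells. Diluted cortex had 12.15, 12.23 and 12.24, and standard-labelled cortex 11.73, 11.88 and 11.79 (log2). JG cell 6 thus lay near the MM cells, JG cell 7 somewhat above its background of 7.70, and the other JG cells below theirs. The difference was 4.23 (MM minus JG, log2), with an SD of 0.10 over MM and 2.21 over JG cells. The other H2az1 probe set had at least 12.64 in each MM cell and 8.01, 5.65, 12.22, 8.10 and 5.96 in JG cells (log2), and there JG cell 4 too was above its background of 7.73.

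H2ax encodes H2A.X, which is phosphorylated at DNA breaks. Its log2 signals were 11.37, 10.54, 11.45 and 10.72 in MM cells, 7.62, 7.19, 6.90, 7.26 and 6.94 in JG cells, 8.37, 8.47 and 8.35 in diluted and 7.18, 7.42 and 7.40 in standard-labelled cortex. All MM cells lay above all other arrays, and all JG cells lay below background. H2ax differed by 3.84 (MM minus JG, log2) and was at least 9.79-fold higher in MM cells.

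Macroh2a2 encodes macroH2A2, a large variant tied to silent chromatin. It had log2 signals of 10.89, 11.25, 10.70 and 10.96 in MM cells, 7.50, 7.01, 8.03, 7.35 and 7.52 in JG cells, 8.67, 8.56 and 8.53 in diluted and 8.78, 8.30 and 8.62 in standard-labelled cortex. Again the MM cells were the highest arrays, and of the JG cells only cell 6 was above background. The difference was 3.47 (MM minus JG, log2).

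Macroh2a1, its paralog, was split among MM cells. Its log2 signals were 11.26, 11.07, 5.91 and 11.62 in MM cells, 5.59, 6.42, 6.38, 6.85 and 6.95 in JG cells, 10.44, 10.68 and 10.46 in diluted and 7.67, 7.97 and 7.97 in standard-labelled cortex. MM cell 16 lay among the JG cells, all below background, and the other MM cells lay above every array. The groups therefore overlapped, and without MM cell 16 Macroh2a1 met the rule too.

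Among the other variants, H2aj, an H2A variant, had log2 signals of 10.37, 10.07, 9.04 and 7.50 in MM cells, 7.74, 8.44, 7.25, 9.92 and 8.09 in JG cells, 10.72, 10.92 and 10.65 in diluted and 10.54, 10.83 and 10.73 in standard-labelled cortex. It was above background in all cells but JG cell 6, MM and JG cells overlapped, and cortex was above all cells. Macroh2a3, as the annotation names it, had log2 signals of 7.31, 6.91, 7.62 and 7.71 in MM cells, 6.45, 7.43, 6.83, 6.59 and 7.21 in JG cells and 5.54 to 5.96 in cortex. It passed background in 3 MM cells by little. H3f3a, 1 of the pair of H3.3 genes, stayed at 5.34 to 6.97 on all arrays on its own probe set (log2).

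**Figure D3:**
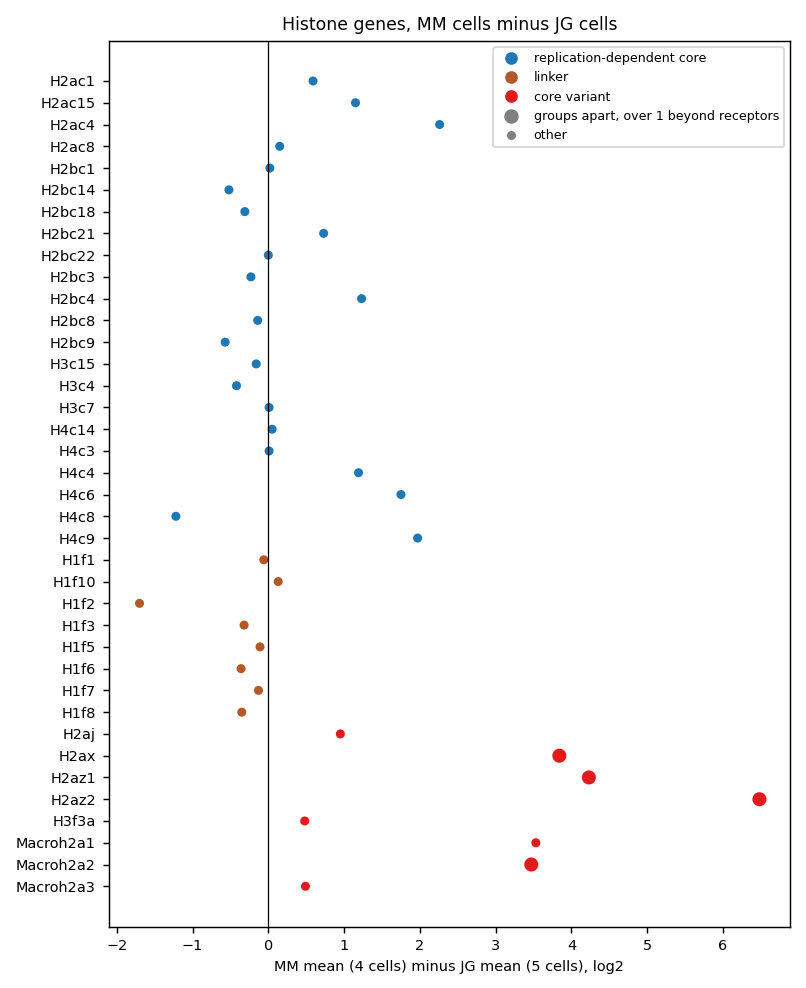
Points give, for each of the 38 genes, the mean log2 signal of 4 MM cells minus that of 5 JG cells, coloured by class, with large points where the groups did not overlap and the difference lay over 1 log2 unit beyond the receptor shift. The 4 large points are the core variants H2ax, H2az1, H2az2 and Macroh2a2, at 3.47 to 6.48.

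Genes that handle histones were read from lists of the S phase, of histone mRNA processing and of histone chaperones. Of all genes, 20.6%, 15.8%, 10.9% and 21.1% were above background in MM cells and 9.06%, 6.78%, 9.98%, 10.7% and 14.2% in JG cells. Of 22 S phase genes, 16, 6, 2 and 11 were above it in MM cells and 2, 1, 3, 0 and 3 in JG cells. Every diluted library had at least 17 and every standard-labelled one at most 13. MM cell 16 had 2 S phase genes above background, near its share of all genes, so this count says nothing about the list. It had 11 replication-dependent histone genes above background, more of that class than any other cell. The S phase counts of JG cells were likewise small beside their shares of all genes, and are a description only. Of 12 processing genes, 4, 3, 1 and 5 were above background in MM cells and 0, 0, 1, 1 and 0 in JG cells. Of 20 chaperone genes, 10, 4, 1 and 7 were above it in MM cells and 0, 0, 1, 3 and 1 in JG cells. Of 11 genes of G2 and mitosis, 6, 1, 2 and 3 were above it in MM cells and 2, 1, 1, 1 and 2 in JG cells. Over these 65 genes, 5 (7.69%, against 1.06% of all genes) were counted as higher in MM cells and 0 as lower, against 0.186% of all genes, a share at which 0 says nothing about the lists. The 5 were Mcm4, a subunit of the replicative helicase, Cdt1, which helps to load that helicase, the cap-binding gene Ncbp1 and the histone chaperones Npm1 and Nasp. Npm1 differed by 4.92 (MM minus JG, log2), with JG cell 7 the only JG cell above background. The other 4 were below background in all JG cells, so that Cdt1 was at least 3.26-fold, Nasp at least 2.33-fold and Mcm4 at least 2.13-fold higher in MM cells, while Ncbp1 could not be resolved from background. Leaving out 1 MM cell lowered these limits to 1.91-fold for Cdt1 (without cell 15), 1.53-fold for Nasp (without cell 14) and 1.4-fold for Mcm4 (without cell 19).

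Slbp encodes the protein that binds the stem-loop of replication-dependent histone mRNAs. On the log2 scale its signals were 11.42, 11.34, 6.39 and 11.08 in MM cells, 6.95, 6.44, 6.37, 5.19 and 6.07 in JG cells, 8.71, 8.78 and 8.88 in diluted and 7.56, 7.80 and 7.86 in standard-labelled cortex. MM cell 16 was again the MM cell that lay with the JG cells. Pcna, the sliding clamp of DNA polymerase, had log2 signals of 12.78, 12.81, 7.44 and 12.64 in MM cells, and 5.75, 6.39, 11.64, 5.94 and 5.40 in JG cells. In JG cells it was above background only in cell 6, the cell that also held H2az1, H4c4, H4c6 and H4c8 at high signal. Of the 22 S phase genes, JG cell 6 had 3 above background, as many as JG cell 8.

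Of the replication-dependent genes, 0 of 22 were counted as higher and 0 as lower in MM cells, against 1.06% and 0.186% of all genes, shares at which 0 of 22 says nothing about the class. Some H4 genes stood far above the rest in single cells. H4c8 had log2 signals of 6.42, 6.57, 7.20 and 6.37 in MM cells, and 6.39, 6.88, 12.73, 6.39 and 6.92 in JG cells 4 to 8. In cortex it had 7.29, 6.81 and 7.22 in the diluted and 5.93, 6.12 and 6.39 in the standard-labelled libraries (log2). JG cell 6 was the only cell above background.

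H4c4 had log2 signals of 9.63, 9.15, 12.03 and 8.97 in MM cells, 7.70, 7.77, 12, 7.42 and 8.90 in JG cells, 7.44, 7.39 and 6.99 in diluted and 7.64, 7.87 and 7.84 in standard-labelled cortex. MM cell 16 and JG cell 6 were the highest, by more than 2 log2 units over the other cells. H4c6 had the same 2 cells on top, with log2 signals of 7.80, 8.36, 10.51 and 7.59 in MM cells and 6.43, 6.48, 10.15, 5.12 and 5.91 in JG cells, and 4.94 to 6.0 in cortex. Without JG cell 6, both genes met the rule for higher in MM cells.

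H4c9 was high in another pair of cells. Its log2 signals were 11.09, 10.86, 8.14 and 7.20 in MM cells, 7.33, 7.37, 8.16, 7.06 and 6.84 in JG cells, 8.80, 9.04 and 8.88 in diluted and 6.88, 7.07 and 6.78 in standard-labelled cortex. MM cells 14 and 15 lay above all other arrays, and MM cell 19, at 7.20, was just over its background of 7.13. H4c14 was above background everywhere, at 8.90, 9.76, 10.27 and 8.43 in MM cells, 8.85, 9.07, 10.63, 8.34 and 9.55 in JG cells and 7.61 to 7.94 in cortex (log2). H4c3 had log2 signals of 7.41, 8.21, 8.31 and 6.11 in MM cells and 6.89, 7.45, 8.49, 7.02 and 7.64 in JG cells, and 5.84 to 6.77 in cortex. For H4c3, H4c4, H4c6 and H4c14, MM cell 16 was the highest MM cell and JG cell 6 the highest JG cell.

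Among the H2B genes, H2bc4 was high in cortex and in a single cell. It had log2 signals of 4.11, 4.50, 3.58 and 10.98 in MM cells, 4.85, 4.08, 4.68, 4.61 and 4.62 in JG cells, 12.50, 12.54 and 12.39 in diluted and 11.85, 11.80 and 11.89 in standard-labelled cortex. Every cell but MM cell 19 lay below background. H2bc21 had log2 signals of 8.91, 5.51, 5.28 and 4.88 in MM cells, 6.01, 5.71, 5.63, 5.12 and 4.62 in JG cells, 7.45, 7.89 and 7.91 in diluted and 9.86, 10.26 and 10.21 in standard-labelled cortex. MM cell 14 was the only cell above background.

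Of the remaining H2B genes, H2bc9 was high on all arrays, with log2 signals of 9.20, 9.63, 8.96 and 8.93 in MM cells, 9.03 (cell 7) to 10.26 (cell 5) in JG cells, 9.62, 9.87 and 9.89 in diluted and 8.94, 8.62 and 9.03 in standard-labelled cortex. H2bc14 had 7.79, 7.82, 7.98 and 7.27 in MM cells, 8.32, 8.87, 7.91, 7.54 and 8.55 in JG cells, 8.76, 8.64 and 8.68 in diluted and 7.84, 8.0 and 7.85 in standard-labelled cortex (log2). MM and JG cells overlapped in both genes, and every cell but JG cell 7 had H2bc14 above background.

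The H2A genes were led in MM cell 14 by H2ac4, which had log2 signals of 10.72, 6.06, 8.56 and 6.83 in MM cells, 5.56, 5.45, 6.11, 6.46 and 5.35 in JG cells, and 4.48 to 5.02 in cortex. It was above background in MM cells 14 and 16 only. H2ac1 was above background on all 15 arrays, at 8.76, 8.74, 10.07 and 8.39 in MM cells, 7.79, 8.27, 8.20, 9.08 and 8.65 in JG cells and 7.15 to 7.64 in cortex (log2). H2ac15 had log2 signals of 6.56, 7.18, 7.77 and 6.89 in MM cells, 6.78, 6.44, 5.66, 5.69 and 5.20 in JG cells, and 4.62 to 5.01 in cortex, and passed background in MM cell 16 alone. Of the H3 genes, H3c4 had 6.50, 6.81, 7.56 and 6.51 in MM cells, 7.95, 7.44, 7.04, 7.15 and 6.74 in JG cells, and 5.49 to 5.91 in cortex (log2), with MM cell 16 and JG cell 4 just at or above background. H3c15 was above background in cortex alone, in 5 of 6 libraries.

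Linker histone genes overlapped between MM and JG cells. H1f10 encodes H1.10, a linker made outside the replication-dependent program. The log2 signals of H1f10 were 7.91, 11.16, 10.67 and 9.10 in MM cells, 8.56, 12.66, 8.90, 8.27 and 9.48 in JG cells, 6.83, 6.74 and 6.86 in diluted and 6.30, 6.29 and 6.29 in standard-labelled cortex. Every cell was above background and above every cortex library, and JG cell 5 was the highest.

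H1f2 encodes H1.2, a main somatic linker. It had log2 signals of 5.95, 6.66, 10.17 and 6.27 in MM cells, 6.83, 7.30, 7.07, 11.60 and 11.99 in JG cells, 11.00, 11.16 and 11.04 in diluted and 11.22, 11.19 and 11.20 in standard-labelled cortex. It was above background in MM cell 16 and JG cells 7 and 8, where it came near or above cortex, and below it in the other 6 cells.

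H1f5 had log2 signals of 8.57, 6.55, 6.79 and 6.54 in MM cells and 7.34, 6.96, 7.30, 6.79 and 7.72 in JG cells, and 5.32 to 5.60 in cortex. H1f1 had 7.09, 7.14, 6.84 and 7.44 in MM cells and 7.03, 6.88, 7.19, 7.03 and 7.81 in JG cells, and 5.77 to 6.25 in cortex (log2). H1f7, a germ cell linker, had 7.55, 7.75, 7.45 and 7.35 in MM cells, 7.56, 7.64, 7.74, 7.59 and 7.73 in JG cells, and 5.79 to 6.32 in cortex (log2). H1f7 lay around the background level, passing it in 3 MM cells, 2 JG cells and 2 diluted libraries, and H1f1 and H1f5 passed it in 1 MM cell and 1 JG cell each.

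**Figure D4:**
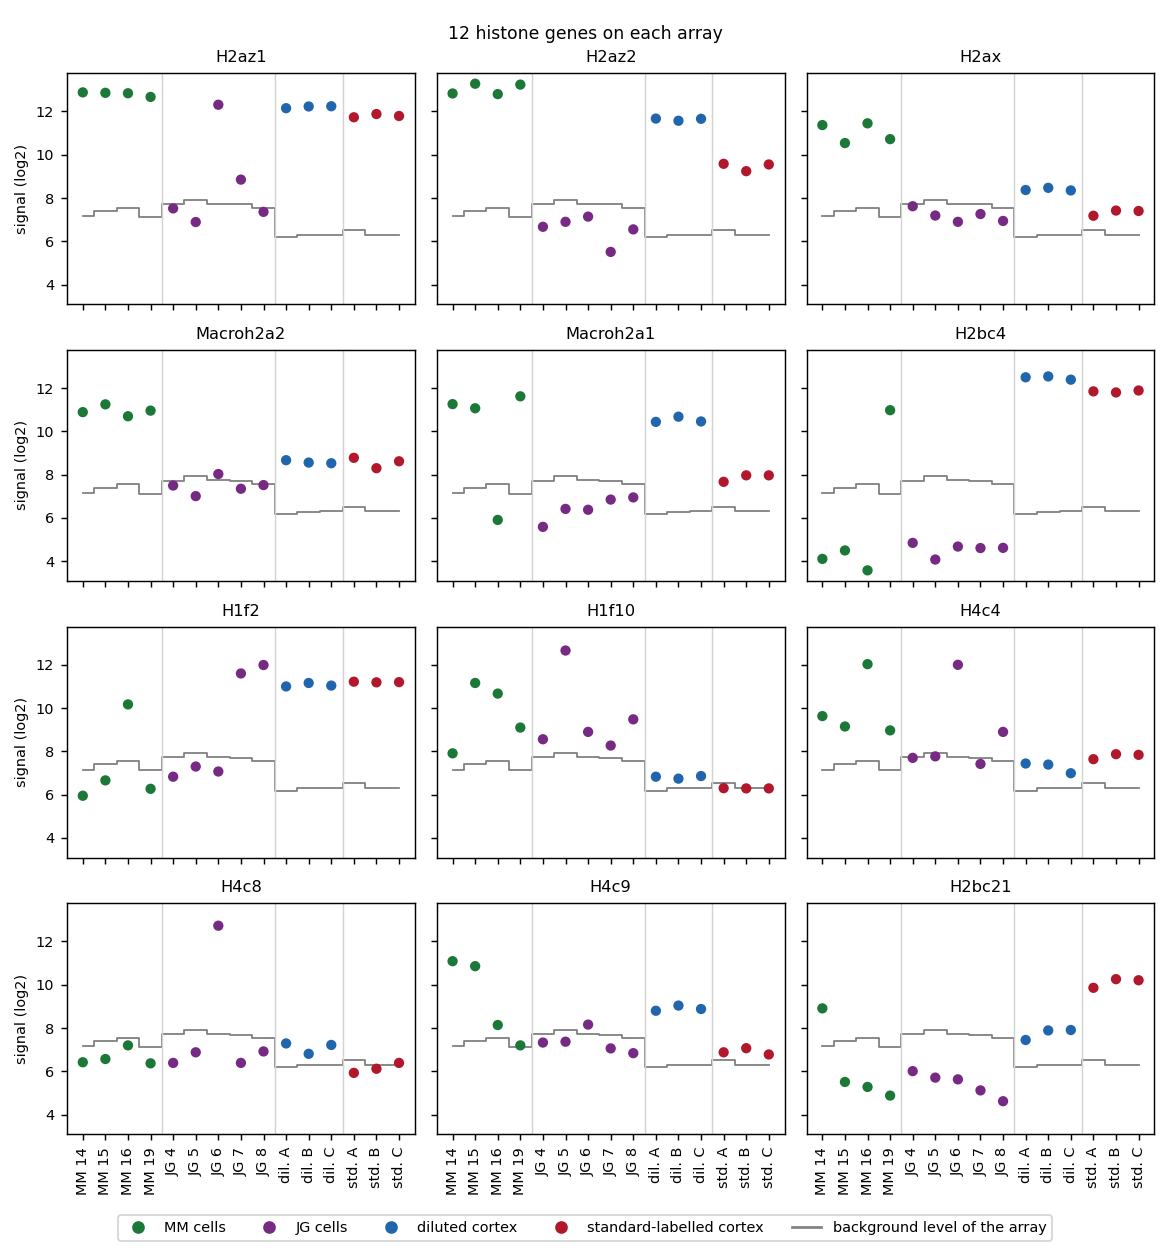
Points give the deposited log2 signal of 12 histone genes on each array, MM cells in green, JG cells in purple, diluted cortex in blue and standard-labelled cortex in red, with the background level of each array as a grey step. H2az2, H2ax and Macroh2a2 had all MM cells above all JG cells, while H4c8 (12.73 in JG cell 6) and H2bc4 (10.98 in MM cell 19) were above background in a single cell.

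Set against diluted cortex, which was amplified in the same way, MM cells had 7 members higher and 5 lower. The 7 (18.4%, against 0.667% of all genes) were H2ac15, H2ac4, H4c4, H4c6, H1f10, H2ax and Macroh2a2. The 5 (13.2%, against 24.0% of all genes) were H2bc14, H2bc4, H3c15, H1f2 and H2aj. For H4c4 the difference was 2.67, for H4c6 2.86, for H2ac4 3.43, for H1f10 2.90, for H2ax 2.62 and for Macroh2a2 2.36, beside a receptor shift of 0.81 (MM minus diluted cortex, log2). H4c6, H2ac4 and H2ac15 were below background in diluted cortex. On the deposited scale, H4c6 was thus at least 4.96-fold and H2ac4 at least 3.45-fold higher in MM cells. Both limits leaned on 1 cell, since H4c6 was at least 3.16-fold higher without MM cell 16 and H2ac4 at least 1.86-fold higher without MM cell 14. The receptor shift of 0.81 was not taken off these limits. Without MM cell 14, the H2ac4 limit of 0.89 on the log2 scale was close to that shift. H2ac15 differed by 2.31 (log2) but passed background in MM cell 16 alone. Its log2 limit of 0.84 was close to the shift with all MM cells, and it was 0.62 without MM cell 16. H2bc4 differed by -6.68, with only MM cell 19 above background, and H1f2 by -3.81 (log2). H3c15 was below background in all MM cells. It was at least 1.34-fold lower there, and at least 1.11-fold lower without diluted library B. In a lysate, fewer cells that hold a transcript and less of it per cell cannot be told apart.

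JG cells had 1 member higher and 9 lower than diluted cortex. The 1 higher member was H1f10 (2.63% of members, against 0.552% of all genes), with a difference of 2.77 beside a receptor shift of 1.02 (JG minus diluted cortex, log2). It rested on JG cell 5, without which 0 members were counted as higher. The 9 lower members (23.7%, against 29.3% of all genes) were H2bc21, H2bc4, H3c15, H4c9, H2aj, H2ax, H2az2, Macroh2a1 and Macroh2a2, a share below that of all genes. With JG cells set at their background level, H2bc4 was at least 26.8-fold, H2az2 at least 15-fold and Macroh2a1 at least 6.95-fold lower in JG cells. H2bc21 and H3c15 were near the JG background level in diluted cortex, so their differences of -2.33 and -2.24 (log2) could not be resolved from background, and H2ax was at least 1.59-fold lower.

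Both cell groups were set against the same 3 diluted libraries, so their values are given side by side and are not independent. Against diluted cortex, MM cells had a median log2 difference of 0.78 over replication-dependent genes, 1.09 over linker genes and 1.12 over core variants, beside 0.42 over all genes. JG cells had 0.80, 1.39 and -1.85 over the same classes, beside 0.56 over all genes. Relative to the receptor shift, the replication-dependent medians turned negative, at -0.04 for MM cells and -0.22 for JG cells, the linker medians were 0.28 for MM and 0.37 for JG cells, and the variant medians 0.30 for MM and -2.87 for JG cells. With quantile normalization the variant median of JG cells was -0.58. The direction of the replication-dependent class against cortex thus depends on the scaling, while the variant median of JG cells stayed negative. In each cell at least 11 of the 22 replication-dependent genes lay below background, and 8 were above it in no cell.

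Diluted and standard-labelled cortex are both adult cortex of the same reporter line, and they differ in dilution, amplification and labelling, which cannot be told apart. Past the threshold of limma (adjusted p under 0.05 over all probe sets) were 17 of 38 members, 14 higher (36.8%, against 27.4% of all genes) and 3 lower (7.89%, against 24.9% of all genes) in diluted cortex. Among the replication-dependent genes 8 were higher, 3 lower and 11 not called, among linkers 1 was higher and 7 were not called, and among variants 5 were higher and 3 not called. The median log2 fold change was 0.19 over the 38 members and -0.02 over all genes. Called members lay below background in all 6 libraries in 4 cases (H2bc1, H2bc18, H4c6 and H3f3a), and 12 of the 17 had a log2 fold change under 1 in size.

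Macroh2a1 rose most, by a log2 fold change of 2.66 (SE 0.12, limma adjusted p = 1.1e-06), with 10.53 ± 0.13 in diluted and 7.87 ± 0.18 in standard-labelled cortex (log2 mean ± SD, n = 3 each). H2az2 rose by 2.18 (SE 0.11, limma adjusted p = 2.1e-06), 4.53-fold, with 11.64 ± 0.06 in diluted and 9.45 ± 0.19 in standard-labelled cortex. H4c9 rose by 1.99 (SE 0.11, limma adjusted p = 3e-06), 3.99-fold, and H2ax by 1.07 (SE 0.10, limma adjusted p = 5.3e-05), 2.09-fold. H2bc21 fell by 2.36 (SE 0.16, limma adjusted p = 9.2e-06), with 7.75 ± 0.26 in diluted and 10.11 ± 0.22 in standard-labelled cortex, and was 5.15-fold higher in the standard-labelled libraries. In each of these 5 genes all 3 diluted libraries lay on one side of all 3 standard-labelled ones. With the single cells in the same fit, whose spread is far larger, 4 of the 17 calls held (H2az2, H2ax, H2bc9 and H2bc21), and Macroh2a1 and H4c9 each had a limma adjusted p of 0.11. Of the others in the named set, H2bc4 rose by 0.63, H4c8 by 0.96 and H1f10 by 0.51 (log2 fold change), while H1f10 was below background in all standard-labelled libraries and thus at least 1.35-fold higher in diluted cortex. H4c3 fell too, but was below background in all diluted libraries, and was at least 1.15-fold higher in the standard-labelled ones. H4c4 fell by 0.51 on the log2 scale, and its call was lost without standard-labelled library B or C (limma adjusted p = 0.055 and 0.056).

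Paralogs of a pair moved apart in this comparison. Macroh2a2 had a log2 fold change of 0.02 (95% CI -0.29 to 0.33, limma adjusted p = 0.911) beside the 2.66 of Macroh2a1, and H2az1 one of 0.41 (95% CI 0.20 to 0.61, limma adjusted p = 0.00513) beside the 2.18 of H2az2. H1f2 had -0.14 (95% CI -0.33 to 0.06) and H2aj 0.06 (95% CI -0.21 to 0.34), neither past the threshold. The differences between paralogs were not tested.

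**Figure D5:**
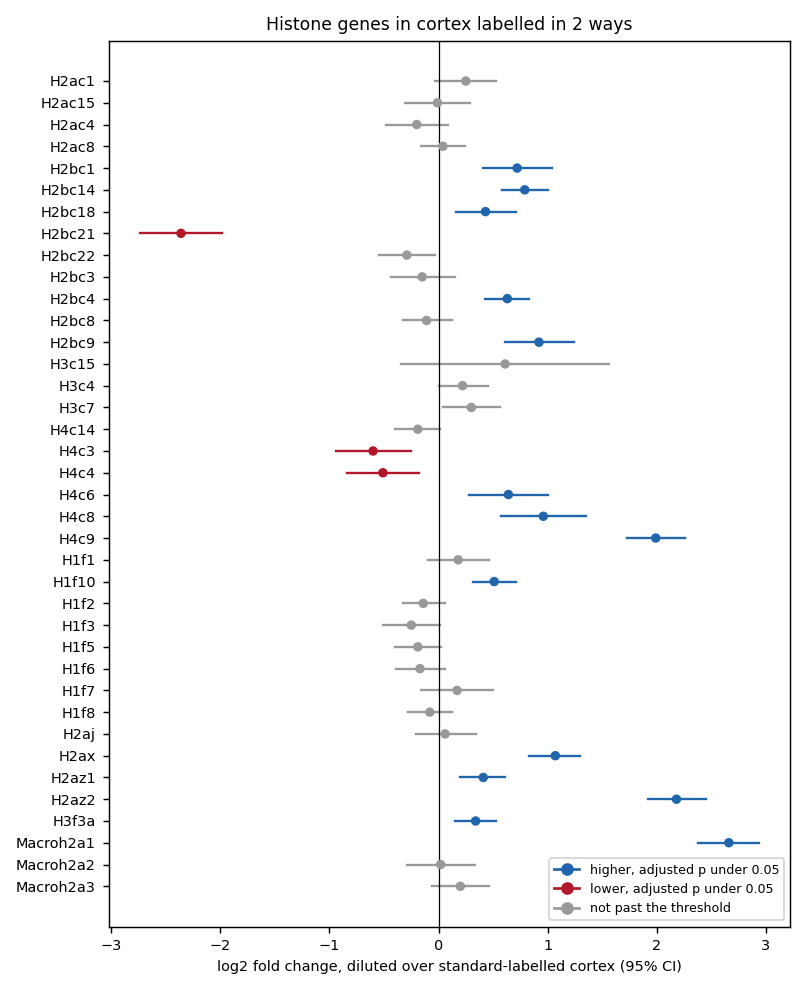
Points give the limma log2 fold change of each of the 38 genes, 3 diluted over 3 standard-labelled cortex libraries, with its 95% confidence interval. Blue marks the 14 genes higher and red the 3 genes lower at an adjusted p under 0.05; Macroh2a1 (2.66), H2az2 (2.18) and H4c9 (1.99) lie farthest to the right and H2bc21 (-2.36) farthest to the left.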

How the data were processed

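The authors deposited log2 signals per probe set of Affymetrix Mouse Gene arrays, 2.22 to 13.98 over 35557 probe sets, and these were analysed without further scaling. The submitters' processing notes name Affymetrix Expression Console. The sources used here do not give its version, summary method or normalization. The platform annotation named the probe sets (21789 with 1 symbol, 1621 with several, 12147 unlisted), checked against RefSeq GRCm38.p6 (21698 matched, 0 changed). Members and lists were chosen with earlier results of these data known.

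Cells were compared by differences of group means with no test. Cortex libraries were compared with limma 3.58.1 (lmFit, eBayes) in R 4.3.3, two-sided, with Benjamini-Hochberg adjustment over all probe sets and no filter on low values, and the fit was tested on simulated data. Values per array were given for H2bc4, H4c8, H2az2, H1f10, each member above background in a cell, and each cortex call of at least 1 log2 unit in size. From each companion list up to 4 genes, Pcna, Slbp and Six2 could be named. Alternatives were another summary, scaling, probe set rule, filter, fit or background percentile, and each array left out. Arrays have no count depth, and their number limits the precision. Python 3.11.15, numpy 2.4.6, pandas 2.3.3 and matplotlib 3.10.9 were used for the rest.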

Additional observations from a re-analysis of the deposited data

Results flagged for a closer look

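Of 26 members above background in a cell, the 4 MM cells and the 5 JG cells were searched for a cell far from the others, by the gap to its neighbour as a share of the range of the group (Dixon's criterion). Of 52 such groups, 8 had one. Chance alone gives about 1 in 20, but that rate does not hold for members kept because a cell was above background, and cells are not replicates, so the 8 are a description only. In MM cells, H2bc21 stood at 8.91 in cell 14 against 4.88 to 5.51 in the others, and H1f5 at 8.57 in cell 14 against 6.54 to 6.79 (log2). H2bc4 stood at 10.98 in cell 19 against 3.58 to 4.50. In MM cell 16, H1f2 was at 10.17 against 5.95 to 6.66, and Macroh2a1 was low, at 5.91 against 11.07 to 11.62. In JG cells, H4c6 stood at 10.15 in cell 6 against 5.12 to 6.48, and H4c8 at 12.73 in cell 6 against 6.39 to 6.92. H1f10 stood at 12.66 in JG cell 5 against 8.27 to 9.48. All values but that of Macroh2a1 lay above the background of their array.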

How the results depend on the processing

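Of 129 class medians recomputed under alternatives, 113 moved by less than 1 SD and 16 by more. That SD was the larger of the 2 groups' SDs of the class median over arrays, which in cells is a spread between single cells. Most settings left out 1 array, which moves a group mean little, so the 113 was largely set by the design. In all, 7 changed sign, each over replication-dependent genes. Relative to the receptor genes, 2 turned to -0.22 (JG minus diluted cortex) and -0.04 (MM minus diluted cortex). The other 5 lay within the spread of the near-zero 0.02 of MM minus JG, at -0.04 with group medians and between -0.12 and -0.02 without MM cell 15 or 16 or JG cell 4 or 7. Relative to the receptors, linker genes moved to 0.37 (JG) and 0.28 (MM), and variants to -2.87 (JG) and 0.30 (MM). Quantile normalization gave 0.45 for replication-dependent genes and -0.58 for variants (JG minus diluted cortex), 0.87 for linkers (MM minus diluted cortex) and 2.76 for variants (MM minus JG). It moved the median of all genes to 0.13 in JG minus diluted cortex, against 0.56 as deposited, and to 0.08 in MM minus diluted cortex, against 0.42. With members above background on 1 array or more, variants were at -2.47 (JG) and linkers at 1.27 (MM). Against standard-labelled cortex, variants were at -1.26 (JG) and 1.91 (MM). Leaving out 1 array, the variant median of JG minus diluted cortex ran from -2.06 to -1.73, the count of members higher in JG cells from 0 (without JG cell 5) to 1, and the count lower in MM than JG cells from 0 to 1 (H1f2, without MM cell 16). With the 95th percentile as background, JG cells 4, 5, 7 and 8 had 15, 15, 19 and 20 members above it.

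Of 39 counts of cortex calls, 35 stayed within 1.5 times of the value reported. With all 15 arrays in the limma fit, 4 members passed (3 higher, 1 lower), and with quantile normalization 5 were lower. Leaving out 1 library gave 16 to 19 calls. The filter on low values left 24 of 38 members. Whether the letters A to C pair the libraries was not settled. Same-letter deviations correlated at 0.09, 0.07 and 0.02, and those of different letters at -0.1 to 0.04, all too low to decide it. With the letters as a replicate block, 19 members passed (16 higher, 3 lower). Of 218 single-gene values, 203 stayed on their side of the threshold and 15 lost the call, 13 of them with all 15 arrays in the fit.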

Other observations

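The 32 probe sets that carry several symbols hold most H3, H4 and H2B genes, and their signal can belong to any gene they name. Over 6 H4c probe sets, the median log2 signal was 11.12, 11.93, 12.29 and 9.95 in MM cells and 8.55, 7.58, 12.58, 7.62 and 8.82 in JG cells. Diluted cortex had at most 8.91 and standard-labelled cortex at most 8.29. MM cell 16 and JG cell 6 were the highest of their groups, as for 4 H4 genes with a probe set of their own. Both kinds of probe set may take up the same transcripts, so the 2 observations are not independent. Over 10 H3c probe sets, the median log2 signal was 8.76, 10.70, 12.14 and 11.81 in MM cells and 8.55, 7.90, 9.48, 9.33 and 11.20 in JG cells. Diluted cortex had at most 8.38 and standard-labelled cortex at most 6.73 (log2). A set of 20 symbols, with H2ac, H2aj, H2ax and H3c genes, had log2 signals of 11.73 to 11.87 in MM and 9.15 to 10.56 in JG cells. Another of 19 symbols, with H2ac, H2ax and H3c genes, had 10.67 to 11.10 in MM and 8.42 to 9.32 in JG cells. MM and JG cells did not overlap in either set, and which of the named genes gave the gap cannot be told. Over 7 H2bc probe sets the median log2 signal was at most 8.72 in MM cells and 8.62 in JG cells. In cortex it was at least 11.87 after dilution and 9.02 after standard labelling, so that these sets, like H2bc4, were brighter in cortex than in cells. The cortex fold change of the 7 had a median of 2.32 (log2, diluted over standard-labelled). All 7 passed the limma threshold as higher, against 27.4% of all genes. So did the 10 H3c, 6 H4c and 6 H3f sets and both sets with H2ac and H2ax genes, so the rise was not particular to H2bc. Sets that name the same paralogs may take up the same transcripts, so these counts are not independent.

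The pair of H3.3 genes, H3f3a and H3f3b, was measured by 6 probe sets that each name a second gene. Their median log2 signal was 12.39 to 12.78 in MM cells, 12.50, 11.90 and 12.34 in JG cells 6 to 8, and 5.90 and 6.34 in JG cells 4 and 5, the cells with low ribosomal protein signals. In cortex it was at least 11.90 after dilution and 11.27 after standard labelling. An H3f3b set was at 8.77 in MM cell 16 and 5.88 in JG cell 8, where the H3f3a sets were all at 12.33 or more.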
